A study of Homo sapiens with 18 samples.

Results

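The genes that make, break down and sense sphingosine-1-phosphate (S1P) were followed by RNA-seq in 6 human ovarian cancer cell lines. The 9 genes named were the kinases SPHK1 and SPHK2, the receptors S1PR1, S1PR2 and S1PR3, the lyase SGPL1, the phosphatase SGPP1 and the ceramidases ACER3 and ASAH1. They were matched by gene symbol, and 8 of them were found among the 12853 genes with values. S1PR2 was not analysed here. The group was chosen because SPHK1 was higher in all 3 resistant lines and because S1PR1 was lost in PEO4. Those values therefore describe the choice and carry no test.

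The libraries came from 3 pairs of lines, each a platinum-sensitive line and a resistant counterpart. A2780 is a sensitive line labelled as endometrial/ovarian cancer, and its partner CP70 is a resistant derivative obtained in vitro. PEO1 (sensitive) and PEO4 (resistant) come from 1 patient with high-grade serous ovarian cancer, sampled after platinum treatment had begun and on either side of the onset of clinical resistance. A second patient with the same cancer gave the third pair, grown from ascites. Its sensitive line PEA1 predates platinum treatment, and its resistant line PEA2 dates from the relapse. All 6 lines grew in RPMI-1640 with glutamine and fetal bovine serum, no drug exposure is labelled for these libraries, and total RNA was depleted of ribosomal RNA. Each line is a single model of resistance. Each gave 3 libraries, which no label describes as separate cultures, so p-values measure the spread between libraries, which may be technical.

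S1P is a signalling lipid with a short route of synthesis and removal. Ceramidases release sphingosine from ceramide, and the sphingosine kinases phosphorylate it to S1P. S1P phosphatases return it to sphingosine, while the lyase SGPL1 cleaves it irreversibly, the only exit from the sphingolipid pathway. Exported S1P acts on G protein-coupled receptors at the cell surface, and the pathway is known in cancer for its links to survival and migration, whereas ceramide is linked to cell death.

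Expression is given as log2 CPM, the log2 of counts per 1e6 reads (CPM) after the authors added 0.5 reads to each count. The libraries held 1344098 to 7067336 reads on the listed genes (median 2926659). The level that 3 reads represent lay between 0.452 and 2.18 CPM, and such limits cover counting error only. The spread between libraries of a line exceeded counting noise (chi-square per degree of freedom 1.74 to 13.5). Of 5 Mullerian and serous markers, 4 (PAX8, WT1, MUC16 and MSLN) were well expressed in PEO1 and PEO4. A2780 held 0 to 1 reads and CP70 0 to 5 reads over all 5, so the labelled tissue was not visible in this pair by these genes. PEA1 expressed PAX8 (379 to 595 reads), KRT8 (93 to 174), KRT18 (89 to 119) and, at lower counts, EPCAM (21 to 28) and WT1 (7 to 11). It held at most 3 reads of KRT7, KRT19 and MSLN in any library. CDH1 (0 to 4 reads), MUC16 (0 to 5) and SOX17 (1 to 9) were also low in PEA1. Differences between lines of a pair were tested with limma across all 12853 genes, and a gene is said to have changed at a false discovery rate (FDR, Benjamini-Hochberg) below 0.05. The share of all genes that changed was 39.9% in CP70 against A2780, 41.5% in PEO4 against PEO1 and 61.9% in PEA2 against PEA1. In bulk RNA, fewer cells of a type and less RNA per cell cannot be told apart.

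SPHK1, the isoform found mainly in the cytosol, was higher in every resistant library than in any library of its sensitive partner. It stood at 2.89, 1.80 and 3.20 log2 CPM in A2780 and at 5.57, 5.36 and 5.10 in CP70. In the PEO pair it stood at 4.10, 4.09 and 4.35 in PEO1 and at 6.18, 6.10 and 6.30 in PEO4. In the PEA pair it stood at 2.24, 2.21 and 2.11 in PEA1 and at 3.98, 3.92 and 4.06 in PEA2. The resistant and sensitive libraries were separate in each pair, but PEA2 lay below the sensitive line PEO1, so no single level divided resistant from sensitive lines. The log2 fold change (log2FC) was 2.72 ± 0.26 (SE, n = 3 per line) in the A2780 pair, 2.01 ± 0.26 in PEO4 against PEO1 and 1.80 ± 0.26 in PEA2 against PEA1, or 6.57, 4.04 and 3.48 times. The SE of a gene pools its spread over all 6 lines, so it is the same in each pair. PEA1 rested on 6, 6 and 7 reads, and with 2 reads added in place of 0.5 the PEA pair gave 1.57. By line mean the order was PEO4, CP70, PEO1, PEA2, A2780 and PEA1. The last neighbours in it, A2780 and PEA1, overlapped.

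SPHK1 lies on chromosome 17 (74372665 to 74383941, plus strand, GRCh37), and its first part overlaps PRPSAP1, a gene on the opposite strand. The library kit keeps strand, but the strand setting used in counting is not stated in the sources used here. PRPSAP1 fell in PEA2 (log2FC -0.55, FDR = 0.000228), rose in PEO4 (0.67, FDR = 5.66e-05) and did not pass in CP70 (-0.27, FDR = 0.0589). Both genes were thus higher in PEO4, but in PEA2 they moved in opposite directions. The 250 bases before the SPHK1 start in RefSeq (GRCh38.p14) are shown because they are the promoter window of the gene that was higher in all 3 resistant lines. They matched the plus strand of GRCh37 once, at chr17:74379035-74379284, within an intron of PRPSAP1. No SPHK1 transcript of the GRCh37 annotation starts at the RefSeq start. The nearest begin at -227 and 715 bases from it, and an exon of the one at -227 overlaps the window. The window also lies within annotated SPHK1 transcripts that begin further upstream. Capitals mark the match to the SP1 box GGGCGG, read here on the opposite strand.
SPHK1 promoter: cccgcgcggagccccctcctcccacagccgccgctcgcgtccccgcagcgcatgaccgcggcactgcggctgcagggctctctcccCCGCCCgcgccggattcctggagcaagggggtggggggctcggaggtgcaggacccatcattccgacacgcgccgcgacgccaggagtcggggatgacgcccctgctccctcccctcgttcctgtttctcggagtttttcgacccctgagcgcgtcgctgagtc
The match begins 164 bases before the start, in a window of 72.4% GC. Of 27305 promoter windows of this length, 42.3% held GGGCGG on either strand. The AP-1 letters TGACTCA were not in this window and were in 4.16% of all windows. The E-box letters CACGTG were also not there and were in 6.49% of all windows. The same held for the TATA box TATAAA, present in 11.1% of all windows. A match is a description of letters and was not tested for binding.

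SPHK2, the second kinase, which is found in the nucleus and at internal membranes, passed the test in none of the pairs. It stood at 4.24, 4.01 and 4.55 log2 CPM in A2780 and at 3.77, 3.43 and 3.70 in CP70, and the lines did not overlap (log2FC -0.63, 95% interval -1.25 to -0.01, FDR = 0.100). It stood at 3.57, 3.86 and 3.65 in PEO1 and at 3.74, 3.48 and 3.72 in PEO4, which overlapped (log2FC -0.05, interval -0.67 to 0.57, FDR = 0.916). PEA1 gave 3.67, 3.03 and 3.33 and PEA2 gave 2.18, 3.23 and 3.65, which also overlapped (log2FC -0.32, interval -0.95 to 0.30, FDR = 0.354). Fitted on its own 6 libraries, the A2780 pair gave an FDR of 0.0250, and with precision weights from the reads 0.0217. SPHK2 (chromosome 19, 49122548 to 49133974, plus strand) overlaps DBP on the opposite strand, which rose in PEO4 (log2FC 2.11, FDR = 0.000227) while SPHK2 did not pass.

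**Figure D1:**
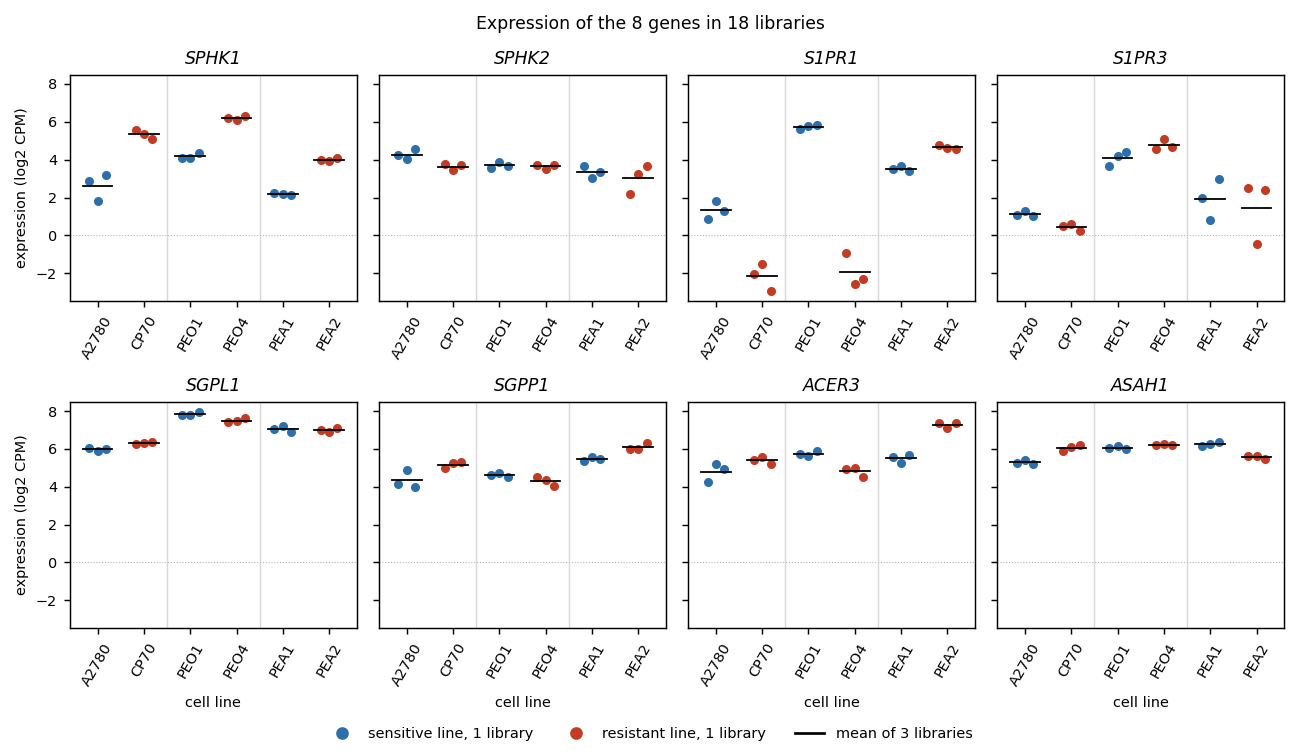
Expression (log2 CPM, vertical axis) of the 8 genes by cell line, with sensitive lines in blue, resistant lines in red, a point per library and a bar at the mean of 3. SPHK1 is higher in the red points of each pair, S1PR1 lies between -2.93 and -0.95 in PEO4 and CP70, and SPHK2 stays within 2.18 to 4.55 in all 18 libraries.

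S1PR1, a receptor that couples to Gi and is best known for guiding lymphocyte exit and vessel stability, was at or near 0 reads in 2 resistant lines and was higher than its partner in PEA2. It lies on chromosome 1 (101702421 to 101709269, plus strand). PEO1 held 150, 152 and 381 S1PR1 reads and PEO4 held 1, 0 and 0. Expression was thus at least 49.4-fold lower in PEO4, taking 3 reads in each PEO4 library as the limit, and this loss is what the gene was chosen on. A2780 held 6, 13 and 5 reads and CP70 held 1, 1 and 0. S1PR1 fell in CP70, by at least 3.65-fold against the limit of 3 reads (FDR = 1.07e-06), and this pair was not used in the choice. The fitted log2FC was -3.47 with 0.5 reads added and -2.40 with 2 reads added, both past the threshold.

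In the PEA pair S1PR1 moved the other way. PEA1 held 15, 17 and 18 reads (3.49, 3.64 and 3.41 log2 CPM) and PEA2 held 51, 85 and 52 reads (4.78, 4.62 and 4.59). The lines did not overlap, and S1PR1 rose by a log2FC of 1.15 ± 0.42 (SE, n = 3 per line, FDR = 0.0231), which is 2.22 times. This call was lost without PEA1 replicate 1 (FDR = 0.0501), PEA1 replicate 3 (0.0578) or PEA2 replicate 1 (0.0603), with log2FC between 1.09 and 1.14. It held in 10 of 13 alternatives (lowest FDR 0.000473). The pooled SE includes lines at 0 or 1 reads. The SD of S1PR1 was 0.12 log2 CPM in PEA1 and 0.10 in PEA2, but 0.73 in CP70 and 0.88 in PEO4. The difference in log2FC between the PEA and A2780 pairs was 4.62 ± 0.59 (FDR = 1.66e-06), in which the CP70 values lie at the floor. Markers of other cells moved beside this rise. CDH5, the single endothelial marker of 5 with values, had 0 reads in PEA1 and 66 to 88 in PEA2, and PTPRC, the single leukocyte marker of 5 with values, had 0 and 46 to 70. All 6 simple epithelial markers also rose, from a summed 154 to 202 CPM in PEA1 to 3742 to 3915 CPM in PEA2. The fibroblast markers summed to 366 to 447 CPM in PEA1 and to 3.45 to 6.40 CPM in PEA2, and this fall was that of COL1A1. COL1A2 had 0 reads in PEA1 and 1 to 5 in PEA2 and passed the test (FDR = 0.00748). Its PEA2 mean of 1.29 CPM lay below the 2.01 CPM that 3 reads represent in PEA1, so a rise is not shown at this depth. DCN and LUM were at 0 reads in both lines. Of the 5 Mullerian and serous markers, MUC16 (log2FC 6.70), MSLN (at least 20.5-fold) and SOX17 (4.22) rose in PEA2 (limma FDR 1.37e-06 or below). PAX8 (-0.02, FDR = 0.957) and WT1 (0.26, FDR = 0.529) did not pass. Their summed level was 284 to 390 CPM in PEA1 and 492 to 634 CPM in PEA2. The part of all these markers in the S1PR1 result was not tested. In the A2780 pair, 3 of 4 fibroblast markers and 3 of 6 epithelial markers rose in CP70, where the summed fibroblast level went from 6.19 to 12.9 CPM in A2780 to 50.5 to 57.2 CPM. The summed epithelial level went from 2.24 to 3.13 CPM in A2780 to 89.4 to 95.8 CPM in CP70. CDH5 was at 0 reads in both lines and PTPRC at 2 reads or fewer. The part of these markers in the CP70 results was not tested. In the PEO pair, EPCAM (log2FC 0.46, FDR = 0.0402), WT1 (1.44, FDR = 0.00243) and COL1A2 (at least 10.8-fold, FDR = 1.94e-06) rose in PEO4, and KRT7 fell (-2.44, FDR = 0.000291). The summed epithelial level was 4683 to 4924 CPM in PEO1 and 3251 to 3676 CPM in PEO4, and the summed fibroblast level 3.27 to 7.39 and 14.2 to 17.3 CPM. CDH5 had at most 1 read in any library of this pair and PTPRC 0. The part of these markers in the PEO4 results was not tested.

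S1PR3, a receptor that couples to Gi, Gq and G12/13, passed the test in none of the pairs. It lies on chromosome 9 (91605778 to 91620070, plus strand). PEO1 stood at 3.65, 4.18 and 4.40 log2 CPM and PEO4 at 4.57, 5.07 and 4.66. All PEO4 libraries lay above all PEO1 libraries, but the difference missed the threshold (log2FC 0.69, interval -0.55 to 1.93, FDR = 0.381). The fit of this pair alone gave an FDR of 0.0132. In the other pairs S1PR3 rested on few reads. A2780 held 7, 9 and 4 reads and CP70 8, 6 and 4 (1.07, 1.29 and 1.01 against 0.48, 0.62 and 0.24 log2 CPM). These lines did not overlap (log2FC -0.68, interval -1.91 to 0.56, FDR = 0.390). PEA1 held 5, 2 and 13 reads and PEA2 10, 2 and 11 (log2FC -0.46, interval -1.70 to 0.78, FDR = 0.516), with overlap. The intervals in these 2 pairs include folds in either direction, and changes of S1PR3 within them could not be detected at this depth.

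SGPL1, the S1P lyase, was the most highly expressed of the 8 genes per length of merged exons in PEO1 (19.9 ± 1.31 CPM per kb, SD, n = 3), and its changes were small. A2780 stood at 6.06, 5.89 and 5.97 log2 CPM and CP70 at 6.27, 6.31 and 6.37. The CP70 libraries were all higher, and SGPL1 rose (log2FC 0.34 ± 0.10, FDR = 0.00829). PEO1 stood at 7.79, 7.79 and 7.95 and PEO4 at 7.40, 7.45 and 7.65. The PEO4 libraries were all lower, and SGPL1 fell (log2FC -0.35 ± 0.10, FDR = 0.00766). PEA1 (7.06, 7.20 and 6.90) and PEA2 (6.98, 6.87 and 7.10) overlapped (log2FC -0.07, interval -0.27 to 0.14, FDR = 0.556). The log2FC in the PEO pair differed from that in the A2780 pair by -0.69 ± 0.14 (FDR = 0.000387), and the PEA pair differed from the A2780 pair by -0.41 (FDR = 0.0159). SGPL1 (chromosome 10, 72575661 to 72655573, plus strand) overlaps PCBD1 on the opposite strand, which passed in none of the pairs.

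SGPP1, an S1P phosphatase of the endoplasmic reticulum, rose in CP70 and in PEA2. It lies on chromosome 14 (64150934 to 64194783, minus strand). A2780 stood at 4.15, 4.88 and 3.99 log2 CPM and CP70 at 4.98, 5.23 and 5.30 (log2FC 0.83 ± 0.19, FDR = 0.00182). PEA1 stood at 5.36, 5.59 and 5.44 and PEA2 at 5.97, 5.99 and 6.29 (log2FC 0.62 ± 0.19, FDR = 0.00902). In both pairs every resistant library lay above every sensitive one, closely so in the A2780 pair. PEO1 (4.64, 4.72 and 4.53) lay above PEO4 (4.52, 4.34 and 4.04), but the difference missed the threshold (log2FC -0.33, interval -0.74 to 0.08, FDR = 0.188). The log2FC in the PEO pair differed from that in the A2780 pair by -1.16 (FDR = 0.00167) and from that in the PEA pair by -0.95 (FDR = 0.00573).

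ACER3, an alkaline ceramidase, had a different direction or size in each pair. It lies on chromosome 11 (76571903 to 76737841, plus strand). A2780 stood at 4.24, 5.22 and 4.94 log2 CPM and CP70 at 5.39, 5.58 and 5.22, which overlapped at 5.22. ACER3 rose in CP70 (log2FC 0.60 ± 0.20, FDR = 0.0218), but not without A2780 replicate 1 (0.32, FDR = 0.177), CP70 replicate 1 (FDR = 0.0512) or CP70 replicate 2 (FDR = 0.0959). PEA1 stood at 5.59, 5.25 and 5.70 and PEA2 at 7.36, 7.13 and 7.34. All PEA2 libraries were higher, and ACER3 rose 3.39 times (log2FC 1.76 ± 0.20, FDR = 2.50e-07). PEO1 stood at 5.72, 5.60 and 5.91 and PEO4 at 4.95, 4.98 and 4.49. All PEO4 libraries were lower, and ACER3 fell (log2FC -0.94 ± 0.20, FDR = 0.000791). The 3 pairs differed from each other. The log2FC in the PEA pair was 1.16 above that in the A2780 pair (FDR = 0.00161), and that in the PEO pair differed by -1.53 from the A2780 pair (FDR = 0.000159) and by -2.70 from the PEA pair (FDR = 1.15e-07). These differences share libraries of each pair.

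ASAH1, the lysosomal acid ceramidase, moved against ACER3 in PEA2. It lies on chromosome 8 (17913501 to 17942507, minus strand). PEA1 stood at 6.13, 6.27 and 6.37 log2 CPM and PEA2 at 5.61, 5.60 and 5.45. All PEA2 libraries were lower, and ASAH1 fell (log2FC -0.70 ± 0.11, FDR = 1.42e-05). A2780 stood at 5.24, 5.43 and 5.22 and CP70 at 5.87, 6.10 and 6.20. All CP70 libraries were higher, and ASAH1 rose (log2FC 0.76 ± 0.11, FDR = 1.09e-05). PEO1 (6.04, 6.16 and 6.01) lay just below PEO4 (6.21, 6.24 and 6.23), and the difference missed the threshold (log2FC 0.16, interval -0.07 to 0.38, FDR = 0.279). The log2FC in the PEA pair differed from that in the A2780 pair by -1.46 (FDR = 1.31e-07). That in the PEO pair differed by -0.60 from the A2780 pair (FDR = 0.00321) and by 0.86 from the PEA pair (FDR = 8.94e-05).

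**Figure D2:**
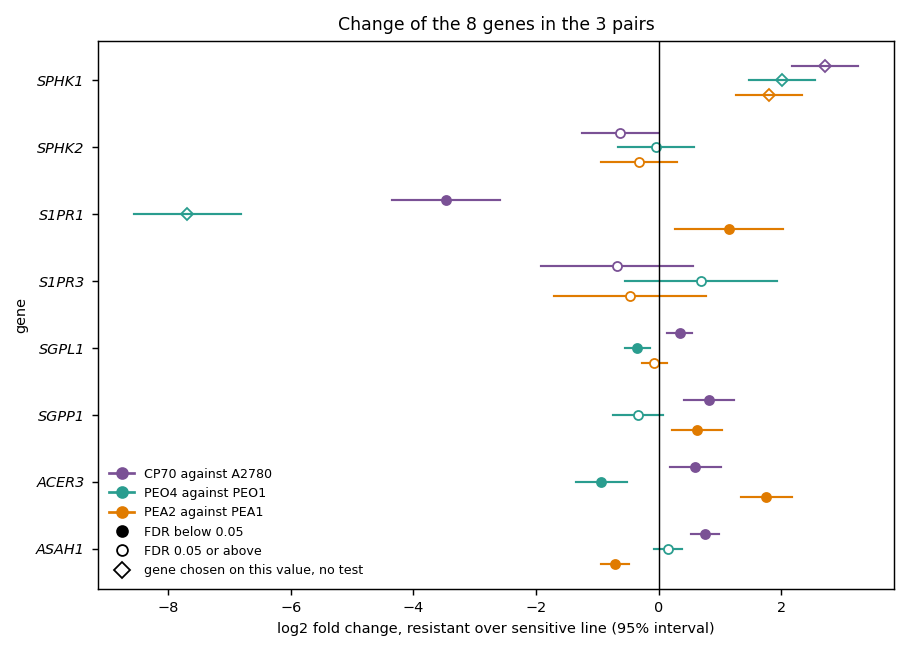
Log2 fold change of the resistant over the sensitive line (horizontal axis) for the 8 genes, with 95% intervals, coloured by pair. Filled circles passed an FDR below 0.05, open circles did not, and diamonds mark values on which the gene was chosen, with no test. SPHK1 lies between 1.80 and 2.72 in the 3 pairs, whereas ACER3 runs from -0.94 for PEO4 to 1.76 for PEA2.

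Leaving out the values used in the choice, 5 of 7 genes changed in CP70, 4 of 7 in PEA2 and 2 of 6 in PEO4. In CP70 4 rose (SGPL1, SGPP1, ACER3 and ASAH1), where 22.2% of all genes rose, and S1PR1 fell, where 17.7% fell. In PEA2 3 rose (S1PR1, SGPP1 and ACER3), where 32.5% of all genes rose, and ASAH1 fell, where 29.4% fell. In PEO4 0 rose, where 19.6% of all genes rose, and 2 fell (SGPL1 and ACER3), where 21.9% fell. With so few genes these counts say little beyond the single genes. The median size of the log2FC was 0.68 over the tested genes in CP70 (0.42 over all genes), 0.62 in PEA2 (0.68 over all genes) and 0.34 in PEO4 (0.43 over all genes). With the further condition of a log2FC beyond 2 in size, S1PR1 in CP70 alone was called, against 9.06% of all genes in that pair, and 0 genes were called in PEA2 and PEO4, against 14.1% and 6.22%. The log2FC differed between the PEA and A2780 pairs for 4 of 7 genes (57.5% of all genes), between the PEO and A2780 pairs for 4 of 6 (47.5%) and between the PEO and PEA pairs for 3 of 6 (58.7%). Besides SPHK1 and S1PR1, all 6 genes differed in level among the sensitive lines A2780, PEO1 and PEA1 (largest FDR 0.0219, SPHK2), as did 88.7% of all genes.

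Ratios within the pathway were compared per kilobase of merged exons, as descriptions with no test. SPHK1 made up 30.4% ± 7.08 (SD, n = 3) of the summed kinase level in A2780 and 81.6% ± 2.95 in CP70. It made up 65.6% ± 3.73 in PEO1 and 88.9% ± 0.64 in PEO4, and 36.99% ± 5.16 in PEA1 and 72.2% ± 9.77 in PEA2. SPHK1 was thus the smaller part in A2780 and PEA1 and the larger part in the other lines. The summed level of both kinases was 4.69 and 11.3 CPM per kb in A2780 and CP70, 6.23 and 18.6 in PEO1 and PEO4, and 2.62 and 4.97 in PEA1 and PEA2.

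Between the receptors with values, S1PR1 made up 75.0% ± 5.15 of the summed level in A2780, 89.3% ± 1.77 in PEO1 and 87.6% ± 8.70 in PEA1. It made up 94.9% ± 3.66 in PEA2, but 18.4% ± 16.2 in CP70 and 1.24% ± 2.15 in PEO4. The summed receptor level in CP70 was only 0.118 ± 0.037 CPM per kb, so its share rests on few reads. The share in A2780 also rests on few reads (5 to 13 of S1PR1 and 4 to 9 of S1PR3). Before division by length (5.22 kb for S1PR1 and 13.7 kb for S1PR3), the A2780 means were close, 2.42 and 2.02 CPM. In PEA1 and PEA2 the S1PR3 part rests on 2 to 13 and 2 to 11 reads. In PEO4 the remaining receptor signal was nearly all S1PR3. ASAH1 exceeded ACER3 per kb in A2780, CP70, PEO1, PEO4 and PEA1, with mean log2 ratios of 1.09, 1.25, 0.92, 2.01 and 1.33. In PEA2 the order was turned, with a mean log2 ratio of -1.14 ± 0.19.

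**Figure D3:**
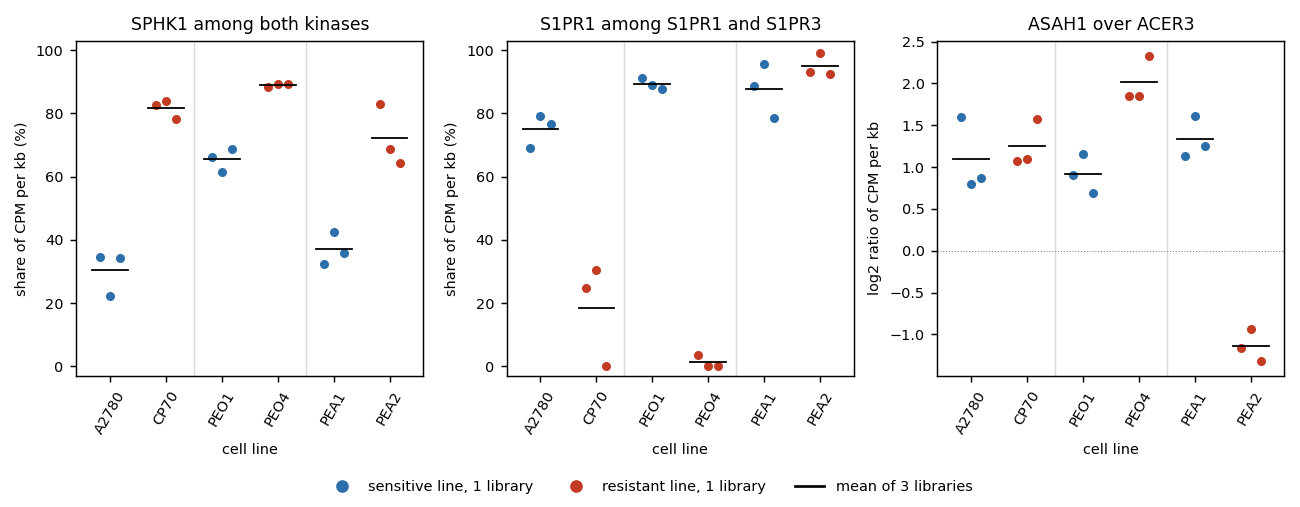
Share of SPHK1 in the summed kinase level, share of S1PR1 in the summed level of S1PR1 and S1PR3 (both in %, of CPM per kb) and log2 ratio of ASAH1 to ACER3, by line, with a point per library and a bar at the mean of 3. SPHK1 reaches 78.3% or more in CP70 and PEO4, S1PR1 stays under 4% in PEO4, and the ceramidase ratio is below 0 in PEA2 alone.

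Of 61 further genes of sphingolipid synthesis, turnover, transport and receptor signalling, 47 had values. In CP70 26 changed, 19 higher and 7 lower, with a median log2FC of 0.12 (all genes -0.03). In PEA2 34 changed, 16 higher and 18 lower, with a median of -0.10 (all genes 0.01). In PEO4 24 changed, 9 higher and 15 lower, with a median of -0.13 (all genes -0.02). These are 55.3%, 72.3% and 51.1% of the list, beside 39.9%, 61.9% and 41.5% of all genes. Of the list, SMPD1 alone rose and UGCG alone fell in all 3 resistant lines, as did 1.59% and 1.21% of all genes. SMPD1, the acid sphingomyelinase that makes ceramide from sphingomyelin, had a log2FC of 1.01, 0.92 and 0.81 in CP70, PEO4 and PEA2 (FDR 0.0112 or below). UGCG, the glucosylceramide synthase that turns ceramide into glycolipid, had -2.21, -2.39 and -0.56 (FDR 0.00142 or below). Its mean level went from 7.61 to 5.40 log2 CPM in the A2780 pair, from 7.09 to 4.70 in the PEO pair and from 9.12 to 8.55 in the PEA pair.

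Of 6 genes of sphingomyelin turnover, 5 rose in CP70, where 22.2% of all genes rose, and SMPDL3B had a log2FC of -0.29 (FDR = 0.594). SGMS2, a sphingomyelin synthase, had a log2FC of 3.17 and SMPD2, a neutral sphingomyelinase, 1.88. B4GALT6, a lactosylceramide synthase, rose by 2.29. KDSR, an enzyme of de novo sphingoid base synthesis, fell (-1.53), and SGPP2, the second S1P phosphatase, fell (-2.01) on 0 to 8 reads per library. FDR was 0.00636 or below for these genes. The SGPP2 values of A2780 (0.16 to 1.25 log2 CPM) and CP70 (-3.08 to 0.30) overlapped.

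In PEA2 all 8 genes of glycosphingolipid turnover changed, beside 61.9% of all genes, and 6 of them were lower, beside 29.4% of all genes. The ceramide kinase and transfer genes CERK, CERT1 and CPTP were all 3 higher (log2FC 1.19, 1.47 and 0.62). PLPP3, a lipid phosphate phosphatase that can remove S1P outside the cell, rose (2.56), as did SMPDL3B (2.20) and the ceramide synthase CERS4 (1.74). In PEA1 SMPDL3B rested on 2 to 5 reads and CERS4 on 1 to 8. SPTLC3, a subunit of serine palmitoyltransferase, fell by at least 10.3-fold, with 13 to 26 reads in PEA1 and 0 to 3 in PEA2. UGT8 (-1.96) and PLPP2 (-1.78) also fell. FDR was 0.0119 or below for the named genes.

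In PEO4 SGPP2 had the lowest log2FC of the list (-4.70, FDR = 1.01e-06), with 174 to 486 reads in PEO1 and 3 to 12 in PEO4. CERK, the ceramide kinase, fell (-2.15, FDR = 1.66e-09). CERS4 (2.57), PLPP2 (1.13) and ALDH3A2 (1.12), the last a dehydrogenase acting on a product of the lyase route, rose (FDR 0.0166 or below). Of the 3 S1P transport genes, 0 passed in this pair with limma (smallest FDR 0.339), while SPNS2, an S1P exporter, fell in CP70 (-0.76, FDR = 0.0297) and in PEA2 (-1.13, FDR = 0.00113). De novo ceramide synthesis had 3 of 13 genes changed in CP70, 8 of 13 in PEA2 and 7 of 13 in PEO4 (23.1%, 61.5% and 53.8%), beside 39.9%, 61.9% and 41.5% of all genes.

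**Figure D4:**
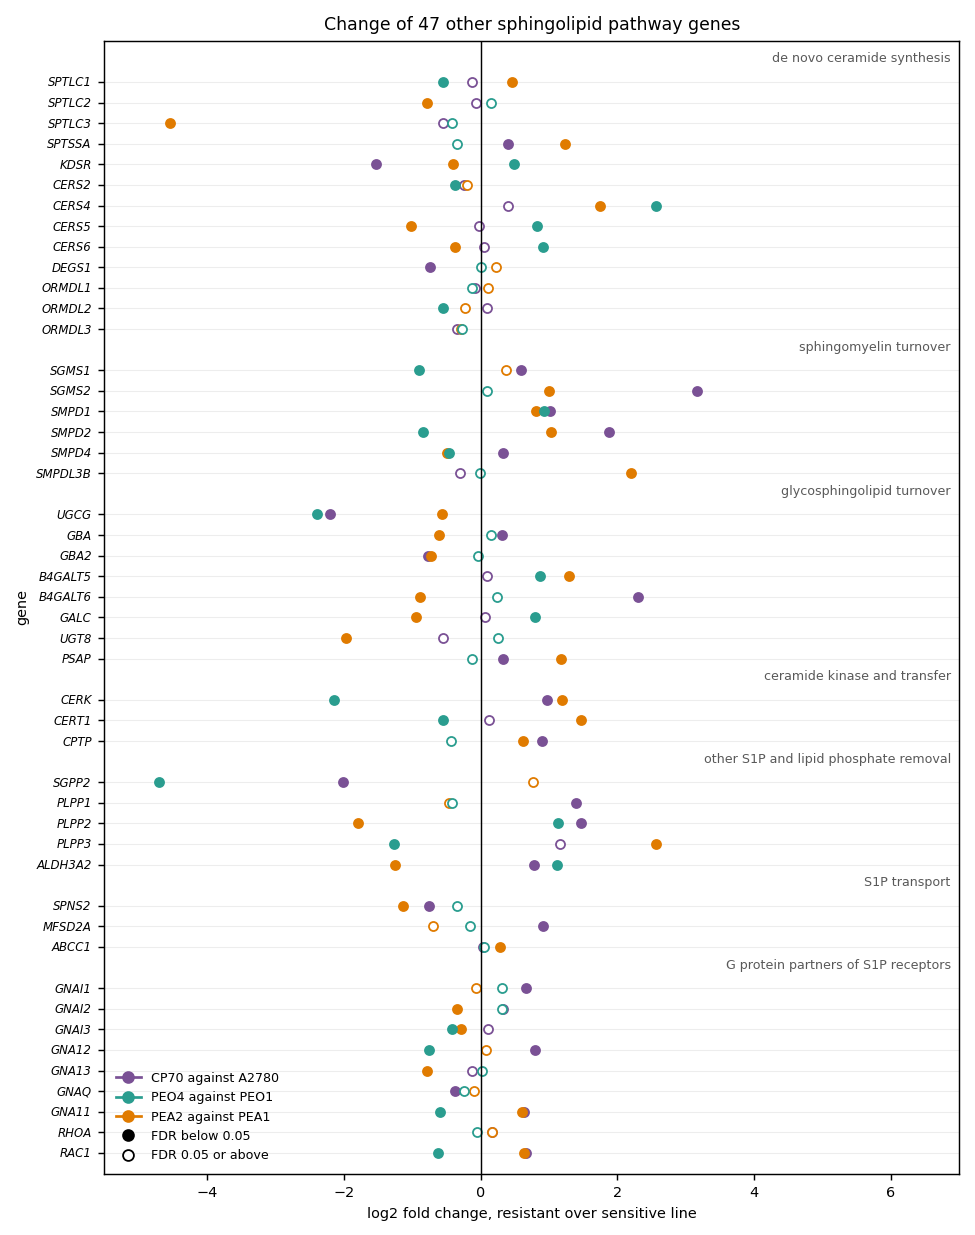
Log2 fold change of the resistant over the sensitive line (horizontal axis) for the 47 further pathway genes, grouped by role and coloured by pair, with filled circles for an FDR below 0.05 and open circles otherwise. UGCG lies below 0 and SMPD1 above 0 in all 3 pairs with filled circles, and the lowest points are SGPP2 at -4.70 for PEO4 and SPTLC3 at -4.53 for PEA2.

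Among genes with a mean of at least 2 log2 CPM, those whose level over the 18 libraries was most like SPHK1 by Pearson's r were SATB1 (0.907), CEP70 (0.904), EHBP1L1 (0.903), HPS6 (0.898) and FBXW4 (0.894). Among those most like S1PR1 were NUAK2 (0.946), ARID4B (0.931), ABTB2 (0.925) and TMEM230 (0.920). The 18 libraries are 6 lines measured 3 times, and these values are descriptions taken from the top of 11227 genes for SPHK1 and 11228 for S1PR1.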

How the data were processed

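Total RNA from 6 lines was sequenced after ribosomal RNA depletion, 3 libraries per line. Per the labels the authors used Bowtie2, featureCounts, limma and hg19, and the deposited table of 12853 genes is in log2 CPM. The values fit counts raised by 0.5 reads before scaling, and 100% of them gave back a whole number of reads (tolerance 0.01), which served as depth. The 9 genes, the pathway and marker lists and the tests were chosen with earlier results of these data known.

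The deposited log2 values were fitted with limma 3.58.1 in R 4.3.3 in 1 model of 18 libraries, a mean per line and a variance trend, with Benjamini-Hochberg adjustment over 12853 genes. A difference between pairs is a difference of their log2FC. The calculation was tested on simulated data. Genes were placed with an annotation of GRCh37, which matched 12642 identifiers and not 211, and CPM was divided by merged exon length. All 8 genes were named, and of the pathway list the 3 highest and 3 lowest called genes per pair and genes called alike in all 3 pairs. Other genes were named to illustrate a group after their values were seen. A gene under these rules is not reported here. A fold against a line with at most 3 reads per library was set against 3 reads. Promoters of 250 bases came from a RefSeq table, which matched 6 of the genes outside chromosome 8. Alternatives were each pair alone, a filter, quantile normalization, a replicate block, no trend, 2 reads added, voom weights, fold thresholds and leaving out each library.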

Additional observations from a re-analysis of the deposited data

Results flagged for a closer look

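The changes of 5 of the 7 genes tested differed between pairs of lines by a test of the difference itself (limma, Benjamini-Hochberg over all genes). SPHK1 was left out of these tests, and S1PR1 of those with the PEO pair, since the choice rests on those values. Each value is a difference of log2FC.

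Between the PEA and A2780 pairs, the difference was 4.62 for S1PR1 (FDR = 1.66e-06), which rose in PEA2 and fell to the floor in CP70. It was -0.41 for SGPL1 (FDR = 0.0159), 1.16 for ACER3 (FDR = 0.00161) and -1.46 for ASAH1 (FDR = 1.31e-07). ASAH1 rose in CP70 and fell in PEA2.

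Between the PEO and A2780 pairs, the difference was -0.69 for SGPL1 (FDR = 0.000387), -1.16 for SGPP1 (FDR = 0.00167), -1.53 for ACER3 (FDR = 0.000159) and -0.60 for ASAH1 (FDR = 0.00321). SGPL1 and ACER3 rose in CP70 and fell in PEO4.

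Between the PEO and PEA pairs, the difference was -0.95 for SGPP1 (FDR = 0.00573), -2.70 for ACER3 (FDR = 1.15e-07) and 0.86 for ASAH1 (FDR = 8.94e-05). The shares of all genes whose log2FC differed in the same way are large, 57.5%, 47.5% and 58.7%, and the cause of the differences was not tested.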

How the results depend on the processing

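Of 654 values of single genes recomputed under the alternatives, 628 kept their direction and their side of the threshold or moved by less than the spread. In 11, each without 1 library and each of a value that passed in neither case, the sign changed. Over the fits that left out 1 library, SPHK2 ran from -0.11 to 0.033 in the PEO pair (positive without PEO1 or PEO4 replicate 2) and from -0.64 to 0.0945 in the PEA pair (positive without PEA2 replicate 1). SGPL1 ran from -0.15 to 0.0048 in the PEA pair (positive without PEA1 replicate 2), and S1PR3 from -1.01 to 0.51 there (positive without PEA1 replicate 3 or PEA2 replicate 2). The differences between pairs ran from -0.33 to 1.19 for S1PR3, PEA against A2780 (negative without PEA1 replicate 2, PEA2 replicate 1 or PEA2 replicate 3), from -0.14 to 0.59 for SPHK2, PEO against PEA (negative without PEA2 replicate 1), and from -0.0095 to 0.73 for SPHK2, PEA against A2780 (negative without PEA2 replicate 3). Requiring a log2FC beyond 1 left 1, 2 and 0 of the 7, 7 and 6 chosen genes tested in CP70, PEA2 and PEO4. It left 9, 16 and 7 of the 47 pathway genes. The share of all genes beyond 1 was not counted, so these counts have no background beside them. A log2FC beyond 2 left 1, 0 and 0 of the chosen genes and 4, 3 and 4 of the 47 pathway genes. Of all genes, 9.06%, 14.1% and 6.22% were called beyond 2 in CP70, PEA2 and PEO4. Fewer calls follow from the stricter thresholds. Calls lost without 1 library were ACER3 in CP70 and S1PR1 in PEA2, as given in the report. Calls gained were SPHK2 in CP70 (pair alone, FDR = 0.0250, and voom, 0.0217), S1PR3 in PEO4 (pair alone, 0.0132), the S1PR3 difference between the PEO and A2780 pairs (replicate block, 0.0425) and the SGPL1 difference between the PEO and PEA pairs (without PEO4 replicate 3, 0.0456, and without PEA1 replicate 2, 0.0404). The cause was not tested. Quantile normalization gave 2.02 for SPHK1 in the PEA pair, and 2 reads added gave 1.57 there and -6.03 for S1PR1 in the PEO pair.

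By label, libraries of a pair share a replicate number. Same-numbered libraries of a pair deviated together by no more than r = 0.0483 (lowest -0.0354). Whether they also share a culture or a run was not tested. With a replicate block, 5, 4 and 2 of the chosen genes changed in CP70, PEA2 and PEO4, as without it. S1PR1 in CP70 and PEO4 and S1PR3 outside the PEO pair lie near the limit that depth sets.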

Other observations

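Among the G protein partners of S1P receptors, RAC1 and GNA11 moved alike, which was seen after their values were known. RAC1, a small GTPase, had a log2FC of 0.67 in CP70 and 0.64 in PEA2 and fell in PEO4 (-0.63, FDR 0.00423 or below in each). The RAC1 values of PEA1 (7.56, 7.75 and 8.45 log2 CPM) and PEA2 (8.28, 8.75 and 8.65) overlapped. GNA11, a Gq family subunit, had a log2FC of 0.63 in CP70 and 0.61 in PEA2 and fell in PEO4 (-0.60, FDR 0.00369 or below in each). The log2FC in the PEO pair differed from that in the A2780 pair by -1.29 for RAC1 and -1.23 for GNA11. Of the 9 G protein partners listed, 5 changed in CP70, 5 in PEA2 and 4 in PEO4. These are 55.6%, 55.6% and 44.4% of them, beside 39.9%, 61.9% and 41.5% of all genes. CERK rose in CP70 (0.96) and fell in PEO4 (-2.15), and the difference between these pairs was -3.11. RAC1, GNA11 and CERK were picked on these changes, so the differences describe the choice and carry no test. The log2FC differed between these pairs for 47.5% of all genes.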
